A study of Mus musculus with 11 samples.

Results

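The clustered histone genes were described here in 4T1 cells, a cell line derived from a mouse mammary carcinoma. Members were all genes of the expression table whose symbol begins with Hist1h, Hist2h, Hist3h or Hist4h, which gave 68 of 24197 genes. They comprised 6 linker histone H1 genes, 18 H2A, 19 H2B, 12 H3 and 13 H4 genes, with 54 members in the Hist1 cluster, 10 in Hist2, 3 in Hist3 and 1 in Hist4. No expression value was used to choose them.

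The study asked how 4T1 cells respond to an activated form of the drug cyclophosphamide and how much of that response passes through the type I interferon receptor. In the 4HC group, 3 cultures received 4-hydroperoxycyclophosphamide (4HC), which yields a DNA-alkylating metabolite, at 5 uM for 4 h, and RNA was collected at 72 h. In the 4HC+IFNAR1Ab group, 3 cultures received the same drug exposure together with a monoclonal antibody against IFNAR1, a subunit of that receptor, at 10 ug/mL, and the antibody was kept in the medium until collection. In the IFNβ group, 3 cultures received interferon-beta at 250 U/mL for 4 h and were collected 2 h after the exposure according to the sample labels. The control group held 2 vehicle-treated cultures collected at 72 h. All cultures were of the same cell line, and no group received the antibody alone. The IFNβ group differed from the control group in time of collection as well as in treatment. The paper's protocol also seeded more cells per well for IFNβ than for drug treatment, and gave no separate seeding number for control cultures. RNA was selected for poly(A) tails before sequencing.

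Most messenger RNAs end in a poly(A) tail, but the mRNAs of replication-dependent histone genes normally do not. They are cut just after a short stem-loop that is bound by the stem-loop binding protein (Slbp), with the help of the U7 small nuclear ribonucleoprotein, and they are made mainly while DNA is being replicated. Some of these genes can also give longer, polyadenylated transcripts, which are known from differentiated or non-dividing cells. H2A, H2B, H3 and H4 form the core of the nucleosome, and H1 binds the DNA between nucleosomes. Libraries made from poly(A) RNA therefore sample a fraction of histone mRNA, and the values below describe reads in such libraries, not total histone mRNA.

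The stem-loop is shown first, because it is the element that sets these mRNAs apart from those that poly(A) selection retains. It was searched for after the stop codon of the GENCODE M21 transcripts (GRCm38). The search took a perfectly paired 6-base stem beginning with GG, closed by a 4-base loop that began with TT and did not end in G. Of the 67 members that had a coding transcript, 44 held one. The stem-loops found lay 21 to 58 bases after the stop codon. Of the 23 members without one, 17 had models that ended within 60 bases of the last coding base. Models that short can end before the element, so these genes are not shown to lack it. A stem-loop with a mismatch or another loop would be missed, so the longer models without a match are not shown to lack it either. The same 16-base element, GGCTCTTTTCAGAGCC, was found in 26 members, and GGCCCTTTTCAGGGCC was found in 7. The stem-loops of 4 members whose levels are described below are given with 5 bases on either side, the stem and loop in capitals.
Hist1h1c: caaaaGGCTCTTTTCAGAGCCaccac
Hist3h2a: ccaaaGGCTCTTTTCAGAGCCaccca
Hist1h4h: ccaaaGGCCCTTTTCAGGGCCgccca
Hist1h4i: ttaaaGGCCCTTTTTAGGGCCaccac
They lie at chr13:23739507-23739532 on the plus strand, chr11:58955167-58955192 on the plus strand, chr13:23531453-23531478 on the plus strand and chr13:22040961-22040986 on the minus strand of GRCm38, in the order printed. Hist1h1c and Hist3h2a carried the same stem and loop, whereas the H4 genes shown had other stem bases.

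Annotated transcripts often continued past the stem-loop. In 22 of the 44 members with a stem-loop, the GENCODE model went on for more than 100 bases after it, by 4884 bases in the longest case. Hist1h2bc, which held many of the reads, had a spliced model of 1156 bases in which no such stem-loop was found, and Hist2h2be had an unspliced model of 2620 bases without one. The length over which reads were counted was mostly close to the length of the GENCODE transcript up to the end of the stem-loop. These lengths differed by at most 100 bases in 31 of the 42 members that had both values. The start sites of the annotations they came from were not aligned, so the position where counting stopped was not determined. Where counting stopped near the stem-loop, reads from a longer transcript would be counted only over its first part. Of the 22 members with a long annotated extension, 13 had 20 or more reads in all libraries together and their median highest group mean was 0.159 FPKM (fragments per kilobase of transcript and per 1000000 reads). Of the 22 members whose model ended within 100 bases of the stem-loop, 5 had 20 or more reads and the median was 0.0872 FPKM. Of the 23 members without a stem-loop in the model, Hist1h2bc and Hist2h2be among them, 5 had 20 or more reads and the median was 0.0915 FPKM. Hist2h3c1 and Hist2h3c2, which share their reads, both counted among those with a long extension. Differences between these sets were not tested.

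**Figure D1:**
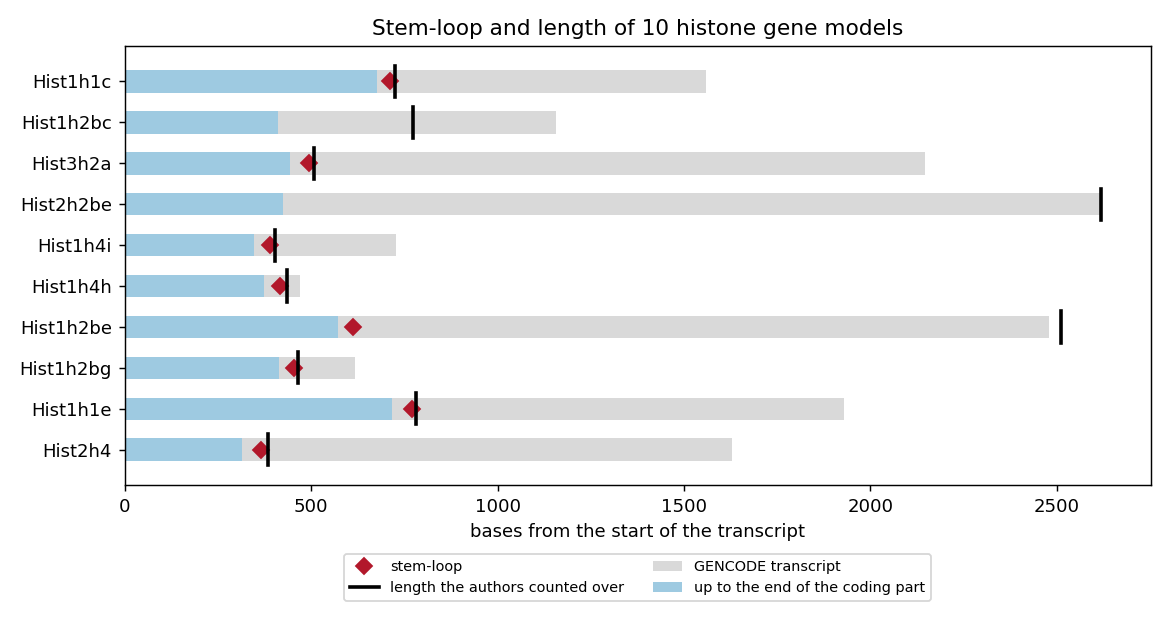
Transcript models of 10 clustered histone genes, in bases from the start of the transcript. Grey bars give the length of the GENCODE transcript, blue the part up to the end of the coding sequence and red diamonds the stem-loop. Black marks give the length over which the authors counted reads, drawn from the GENCODE start, which the counted gene need not share. For Hist1h1c the stem-loop began at base 705 of 1560 and the counted length was 725.

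Upstream sequences were examined for 3 motifs known from histone promoters, on both strands of the 250 bases before the RefSeq start site (GRCm38.p6), which 62 members had. CCAAT was found in 51 of 62 members (82.3%, against 33.8% of 32851 promoters of all genes). TATAAA, a form of the TATA box, was found in 29 of 62 (46.8%, against 12.4%), and the octamer ATTTGCAT, which POU-domain factors such as Oct-1 bind, in 13 of 62 (21%, against 1.6%). The classes differed in what they held. CCAAT was present in all 18 H2A, all 16 H2B and all 6 H1 promoters examined, in 8 of 10 H3 promoters and in 3 of 12 H4 promoters. The octamer was found in 7 H2A and 6 H2B promoters and in none of the H1, H3 or H4 promoters.

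The last 150 bases before the start site are printed for 4 genes whose levels differed between groups, 1 of each of 4 classes, with matches to the 3 motifs in capitals.
Hist1h1c: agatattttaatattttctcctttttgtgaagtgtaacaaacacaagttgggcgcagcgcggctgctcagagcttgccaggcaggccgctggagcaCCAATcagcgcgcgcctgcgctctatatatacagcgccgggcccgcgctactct
Hist3h2a: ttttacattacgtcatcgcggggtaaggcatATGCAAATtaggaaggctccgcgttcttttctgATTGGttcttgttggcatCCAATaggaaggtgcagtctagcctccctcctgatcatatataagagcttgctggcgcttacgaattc
Hist1h2bg: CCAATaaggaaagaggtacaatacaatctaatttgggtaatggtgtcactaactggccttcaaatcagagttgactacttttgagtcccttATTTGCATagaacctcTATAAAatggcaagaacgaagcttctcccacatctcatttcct
Hist1h4i: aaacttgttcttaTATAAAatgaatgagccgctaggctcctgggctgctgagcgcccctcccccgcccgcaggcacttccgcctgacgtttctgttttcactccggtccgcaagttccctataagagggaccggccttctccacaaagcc
These stretches are chr13:23738657-23738806, chr11:58954535-58954684 and chr13:23571250-23571399 on the plus strand and chr13:22041363-22041512 on the minus strand of GRCm38.p6, in the order printed. The H2A and H2B promoters shown held both CCAAT and the octamer, and the H2B promoter also held TATAAA. Of the 3 motifs, the H1 promoter held CCAAT alone, and the H4 promoter held TATAAA alone. That H4 match lay near the end of the stretch farthest from the start site. Other forms of the TATA box were not searched for, so promoters without TATAAA are not shown to lack one. A match is only a match of letters, and no factor binding was measured.

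The deposited values were group means of FPKM, from which the whole number of reads in each library could be recovered. Libraries are named by their depth (39.3 M stands for 39340298 reads), because the recovered libraries carry no replicate number. The depths were 39.3, 37.3 and 32.1 M in the 4HC group, 41.5, 38.4 and 38.3 M in the 4HC+IFNAR1Ab group, 49.3, 42.0 and 34.7 M in the IFNβ group, and 35.8 and 33.7 M in the control group. Of the genes with at least 100 reads in a group, 0.139% to 0.984% lay more than 2-fold from the other libraries of their group in the treated groups, and 1.85% did in the control group. The summed level of 9 epithelial markers was 582 FPKM in 4HC, 595 in 4HC+IFNAR1Ab, 477 in IFNβ and 323 in control cells. Among them Krt18 averaged 206, 218, 101 and 88.1 FPKM and Cdh1, which encodes E-cadherin, 50.5, 49.1, 71.4 and 63.0 FPKM in that order, while Krt5 was at 0 in every group but 4HC (0.0142 FPKM). The pan-leukocyte marker Ptprc was at or below 0.00897 FPKM in every group, while the summed level of 6 leukocyte markers, almost all of it Cd14, was 7.82 FPKM in 4HC, 9.06 in 4HC+IFNAR1Ab, 1.84 in IFNβ and 1.19 in control cells. That of 5 fibroblast and endothelial markers, mostly Pdgfra, was 3.69, 4.56, 0.574 and 0.609 FPKM in the same order, and the part of these genes in the results below was not tested.

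The clustered histone genes were low in all groups. Of the 68 members, 7 reached 0.5 FPKM in at least 1 group, 4 reached 1 FPKM and 2, Hist1h1c and Hist1h2bc, reached 5 FPKM. Reads were found for 64 members, and 4 had none in any library, namely Hist1h1t, Hist1h2aa, Hist1h2ba and Hist1h2bf, the first 3 of which are known as testis histone genes. The 11 libraries together held 4007 reads of members, 1945 of them (48.5%) in Hist1h1c and Hist1h2bc. Members above 0 numbered 58 in 4HC, 57 in 4HC+IFNAR1Ab, 53 in IFNβ and 43 in control cells, the last over fewer libraries than the others. Reads of 4 pairs of near-identical or overlapping genes could not be told apart (Hist1h2ap and Hist1h2ao, Hist1h2bq and Hist1h2br, Hist2h2aa1 and Hist2h2aa2, Hist2h3c1 and Hist2h3c2), and each pair was counted once in sums of reads. Histone genes of 1 class are also alike in their coding sequence, so that the split of reads among other members is uncertain to an unknown extent.

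Summed over all members, histone reads were highest after 4HC and lowest after IFNβ. They came to 13.6 ± 1.48 reads per 1000000 reads of depth (RPM) in 4HC cells (SD, n = 3, range 12.6 to 15.3), to 12.8 ± 1.52 in 4HC+IFNAR1Ab cells (n = 3, range 11.5 to 14.5), to 4.30 ± 1.09 in IFNβ cells (n = 3, range 3.11 to 5.25) and to 6.63 ± 0.835 in control cells (n = 2, range 6.04 to 7.22). The libraries of both 4HC groups lay above both control libraries and overlapped each other, and the IFNβ libraries lay below both control libraries. Without Hist1h1c and Hist1h2bc the means were 6.03, 6.14, 3.10 and 4.07 RPM in the same order of groups. The 4HC libraries (5.41 to 7.17 RPM) and the 4HC+IFNAR1Ab libraries (5.44 to 7.33 RPM) then still lay above both control libraries, whereas the IFNβ libraries, with 3.99, 2.83 and 2.48 RPM, overlapped the control libraries, with 3.77 and 4.37 RPM. Sums over members were not tested. In bulk RNA, fewer cells that express a gene and less RNA per cell cannot be told apart.

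The classes contributed unequally. H2B reads averaged 5.56 RPM in 4HC and 5.75 in 4HC+IFNAR1Ab cells, 1.34 in IFNβ cells and 1.79 in control cells. H4 reads averaged 1.72, 1.60, 0.953 and 0.646 in that order of groups, so that for H4 the IFNβ mean was above the control mean. H1 reads averaged 3.96, 3.46, 0.783 and 2.43 and H2A reads 1.84, 1.28, 0.761 and 1.51. H3 reads were fewest, with 0.522, 0.744, 0.465 and 0.248 RPM. By cluster, Hist1 genes averaged 10.9 and 10.2 RPM in 4HC and 4HC+IFNAR1Ab cells and 3.35 in IFNβ cells, against 3.91 in control cells. Hist2 genes averaged 1.52, 1.81, 0.604 and 1.51 RPM in the order of groups used above, and Hist3 genes, nearly all Hist3h2a, averaged 1.18, 0.799, 0.351 and 1.20. The means of the Hist2 and Hist3 genes in 4HC cells were thus close to those in control cells, unlike that of the Hist1 genes, a difference that was not tested.

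**Figure D2:**
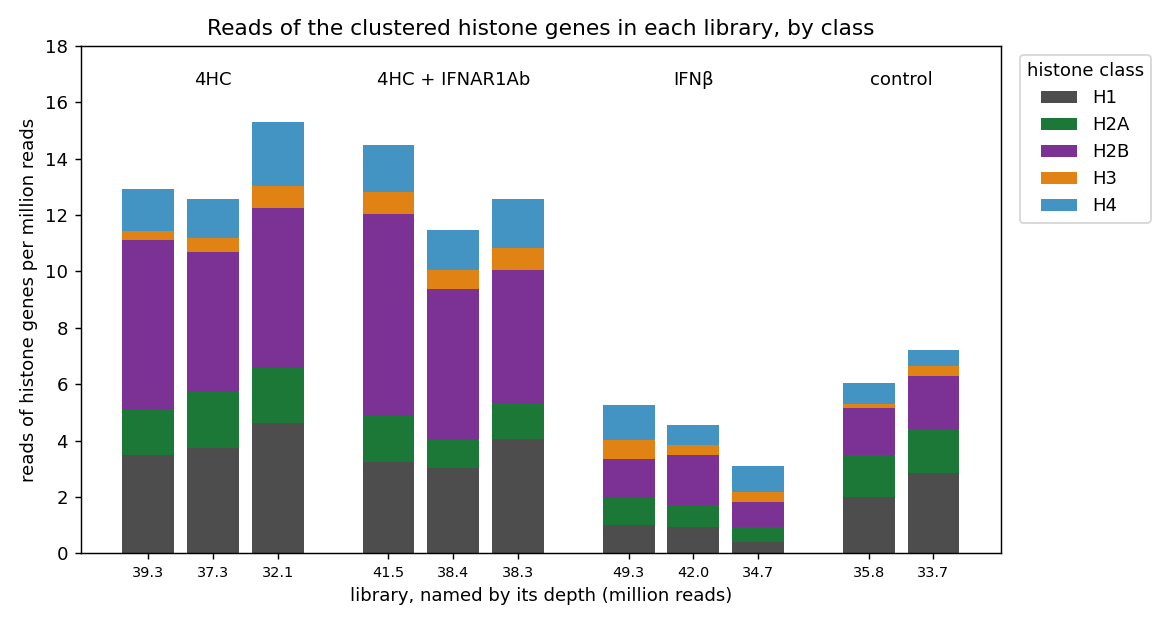
Reads of the clustered histone genes per 1000000 reads (RPM) in each of the 11 libraries (x axis, libraries named by depth in M reads), stacked by histone class, each shared set of reads counted once. The 6 libraries of the 4HC and 4HC+IFNAR1Ab groups reached 11.5 to 15.3 RPM, against 6.04 and 7.22 in the control libraries, and the IFNβ libraries 3.11 to 5.25.

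Individual genes were tested with limma on the recovered reads, in 1 model of all 4 groups. Of the 68 members, 23 had the 20 reads over the 11 libraries that the test required, 41 had between 1 and 19 reads and 4 had none. A gene was called where its Benjamini-Hochberg adjusted p over 12699 genes was below 0.05 and its fold change above 2. The 3 comparisons with control cells share the same 2 control libraries, so their results are not independent of each other.

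In 4HC cells, 8 of the 23 tested members rose and none fell. For comparison, 20.3% of all tested genes were called higher and 1.84% lower by the same rule. The members' median log2 fold was 1.32, against 0.28 for all tested genes. Members with few reads could pass the 20-read filter mainly through libraries with 4HC. Hist1h4h, for example, had 27 reads in 4HC, 21 in 4HC+IFNAR1Ab, 3 in IFNβ and 1 in control cells, and Hist1h2be, Hist1h2bg, Hist1h3g, Hist2h3c1 and Hist2h3c2 were similar. The filter thus favoured rises among low members. The counts of called members and the median are therefore given as a description only, and nothing is read from the count beside the share of all tested genes. The members that rose were 3 H2B genes (Hist1h2bc, Hist1h2be, Hist1h2bg), 2 H4 genes (Hist1h4h, Hist1h4i) and the H3 genes Hist1h3g, Hist2h3c1 and Hist2h3c2, the last 2 of which share all their reads. No H1 or H2A gene was called. At an unadjusted p below 0.05, 10 members were higher and 0 lower, beside 40% of all tested genes higher and 16.4% lower. Only the share that was higher was close to that of the members. Limma-trend on log2 FPKM called 6 members higher and 0 lower, beside 15.3% and 1.66% of all tested genes. In mean FPKM, with no test, 4 of the 7 members that reached 0.5 FPKM in either group were more than 2-fold higher in 4HC cells (Hist1h2bc, Hist1h4h, Hist1h4i and Hist1h4k) and none was lower by that much, beside 14.2% of all genes above that level higher and 2.51% lower. Hist1h4h, Hist1h4i and Hist1h4k reached that level in 4HC cells (0.573, 1.77 and 0.794 FPKM) but not in control cells (0.0321, 0.427 and 0.248 FPKM). For these genes the floor itself favoured a rise, so nothing is read from this count. Every 4HC library lay above both control libraries for 13 of the 23 tested members, or 16 of all 68, and this held for 45.3% of all tested genes. A large share of all genes thus had this order, and nothing particular to the members is read from it.

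With the receptor antibody present, 8 members again rose relative to control cells and none fell, where 21.1% of all tested genes were called higher and 2.76% lower. The median log2 fold of the 23 members was 1.47, against 0.27 for all tested genes. The read filter favoured rises among low members here too, so these counts and the median are likewise a description only. At an unadjusted p below 0.05, 8 members were higher and 1, Hist1h1e, was lower, beside 40.4% of all tested genes higher and 18.6% lower. Limma-trend called 8 members higher and 0 lower, beside 16% and 2.32% of all tested genes. In mean FPKM, 3 of 6 members above 0.5 FPKM were more than 2-fold higher (Hist1h2bc, Hist1h4i and Hist1h4k) and none was lower, beside 14.7% higher and 3.53% lower among all genes. Hist1h4i and Hist1h4k passed 0.5 FPKM in 4HC+IFNAR1Ab cells (1.45 and 0.777 FPKM) but not in control cells (0.427 and 0.248 FPKM), so the floor favoured a rise for them.

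**Figure D3:**
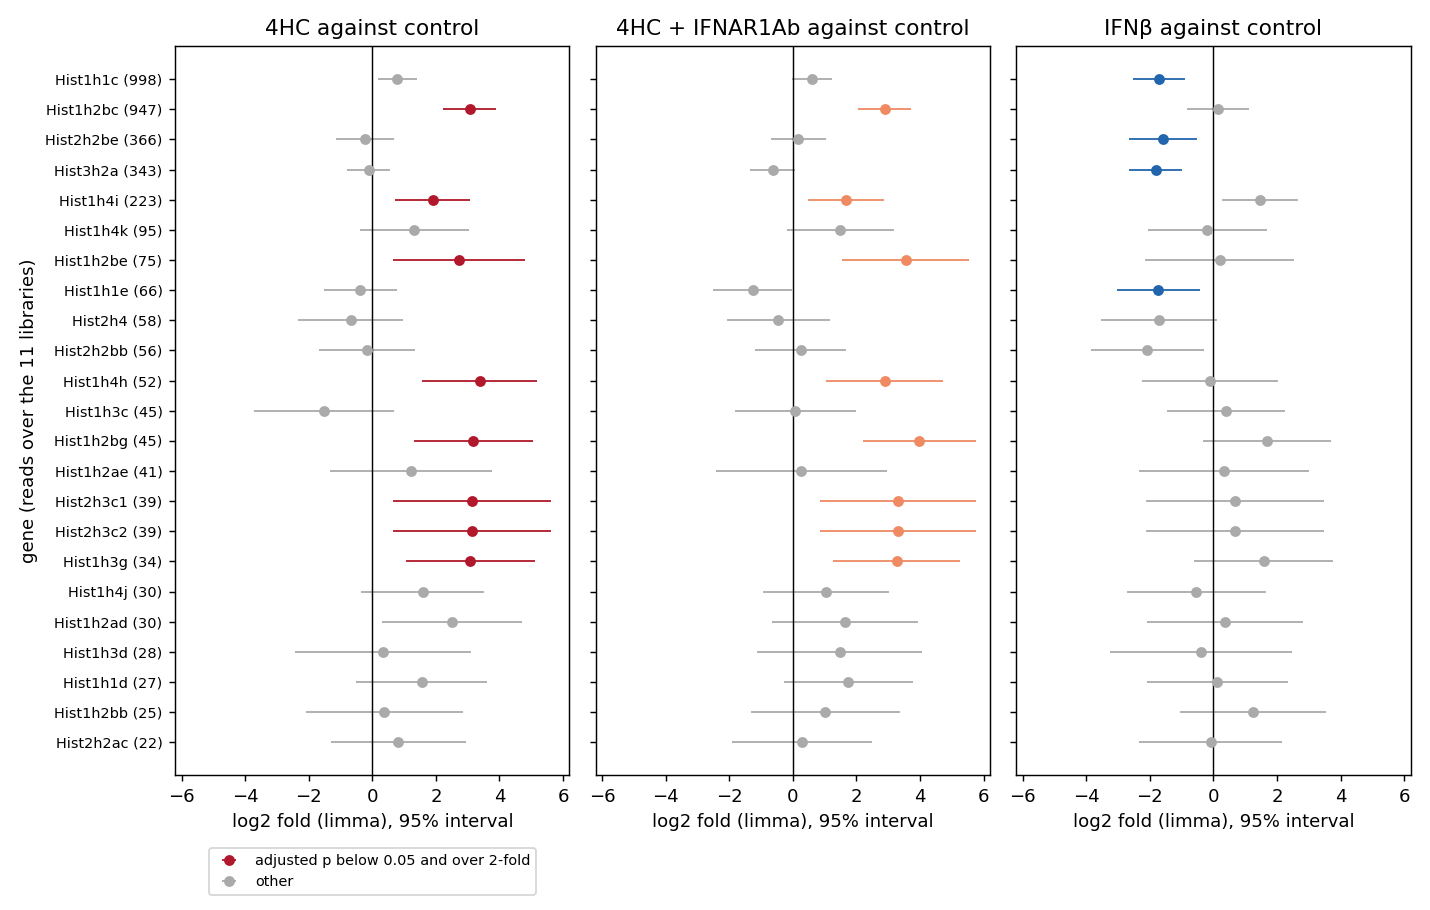
Log2 fold changes of the 23 tested members against control cells, from limma on recovered reads, with 95% intervals. Genes are ordered by their reads over the 11 libraries, in parentheses; coloured points passed the test and 2-fold, and grey points did not: 8 members were called higher in each 4HC group and 4 lower in IFNβ cells.

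Hist1h2bc, an H2B gene, had the smallest adjusted p of the members that rose. Its exons lie on chromosome 13 (mm9, chr13:23776068-23784349) and were counted over 774 bases. It had 5.62, 4.67 and 4.95 FPKM in the 4HC libraries of 39.3, 37.3 and 32.1 M, 5.52, 4.11 and 3.98 FPKM in the 4HC+IFNAR1Ab libraries of 41.5, 38.4 and 38.3 M, 0.576, 1.08 and 0.447 FPKM in the IFNβ libraries of 49.3, 42.0 and 34.7 M, and 0.650 and 0.537 FPKM in the control libraries of 35.8 and 33.7 M. All 6 libraries with 4HC stood far above both control libraries, and the IFNβ libraries overlapped the control libraries. These levels rest on 429 reads in 4HC, 417 in 4HC+IFNAR1Ab, 69 in IFNβ and 32 in control cells. The level was 8.56-fold higher in 4HC than in control cells by pooled reads (95% interval 5.97 to 12.7, counting error only), with a log2 fold of 3.06 ± 0.40 (SE) by limma and an adjusted p of 1.39e-05. In 4HC+IFNAR1Ab cells the log2 fold was 2.89 ± 0.40 (limma adjusted p = 2.09e-05). In IFNβ cells it was 0.15, with a 95% interval from -0.84 to 1.13 (limma adjusted p = 0.84), and it came to -0.20 without the IFNβ library of 42.0 M.

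Hist1h4i, an H4 gene of 403 counted bases (mm9, chr13:22132829-22133231), was the H4 member with the highest level. It had 1.51, 1.33 and 2.47 FPKM in the 4HC libraries, 1.44, 1.29 and 1.62 FPKM in the 4HC+IFNAR1Ab libraries, 0.805, 1.36 and 1.93 FPKM in the IFNβ libraries and 0.486 and 0.369 FPKM in the control libraries, in the order of depths given above. Every library of the 3 treated groups lay above both control libraries, and the 3 treated groups overlapped. The log2 fold was 1.90 ± 0.56 in 4HC cells (SE, limma adjusted p = 0.0101) and 1.68 ± 0.56 in 4HC+IFNAR1Ab cells (limma adjusted p = 0.0194). In IFNβ cells the log2 fold of 1.46 ± 0.56 missed the threshold (limma adjusted p = 0.0519), but passed without the IFNβ library of 49.3 M (log2 fold 1.83, adjusted p = 0.0145). Over the alternatives run its adjusted p ranged from 0.00596 to 0.211. The call in 4HC cells was lost without the control library of 33.7 M (adjusted p = 0.0753), and that in 4HC+IFNAR1Ab cells without either control library (adjusted p = 0.0707 without that of 35.8 M and 0.115 without that of 33.7 M).

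Hist1h4h, a further H4 gene (mm9, chr13:23622913-23623347), had 0.643, 0.431 and 0.645 FPKM in the 4HC libraries, 0.554, 0.299 and 0.360 FPKM in the 4HC+IFNAR1Ab libraries, 0.140, 0 and 0 FPKM in the IFNβ libraries and 0.0643 and 0 FPKM in the control libraries. All libraries with 4HC lay above all those without it. The counts were small, 27 reads in 4HC, 21 in 4HC+IFNAR1Ab, 3 in IFNβ and 1 in control cells, and the ratio of 4HC to control cells, 17.2, had a counting interval from 2.84 to 706. The log2 fold was 3.37 ± 0.86 in 4HC cells (SE, limma adjusted p = 0.00403) and 2.88 ± 0.87 in 4HC+IFNAR1Ab cells (limma adjusted p = 0.0109). Both calls were lost without the control library of 33.7 M (adjusted p = 0.0709 and 0.137). Hist1h4k, which passed 2-fold in mean FPKM in both 4HC groups, had 0.684, 0.328 and 1.37 FPKM in the 4HC libraries and 0.205 and 0.291 FPKM in the control libraries, and did not pass the test (log2 fold 1.32, limma adjusted p = 0.183).

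Of the members that were called, 4 had no reads in either control library, among them Hist1h2bg. That H2B gene (mm9, chr13:23663269-23663732) had 6, 4 and 3 reads in the 4HC libraries, 12, 7 and 7 in the 4HC+IFNAR1Ab libraries, 3, 3 and 0 in the IFNβ libraries and 0 in both control libraries. A count of 0 over the pooled control libraries allows 3 reads. Set against 3 control reads, its ratio was 2.77 in 4HC cells and 5.09 in 4HC+IFNAR1Ab cells. Such ratios hold the treated count as observed and leave out variation between libraries. With counting error in both counts the lower 95% limits of the ratios were 1.95 and 3.85. By limma, the lower 95% limits of its log2 fold were 1.32 and 2.19 (limma adjusted p = 0.00691 and 0.000949). Its call in 4HC cells was lost without the control library of 35.8 M (adjusted p = 0.0548). Hist1h3g, an H3 gene (mm9, chr13:23627287-23627778), had 3, 3 and 7 reads in the 4HC libraries, 6, 4 and 5 in the 4HC+IFNAR1Ab libraries, 4, 0 and 2 in the IFNβ libraries and 0 in both control libraries. Set against 3 control reads, its ratio was 2.77 in 4HC and 2.94 in 4HC+IFNAR1Ab cells. The lower 95% limits were 1.95 and 2.11 when both counts vary. By limma, the lower 95% limits of its log2 fold were 1.06 and 1.27 (limma adjusted p = 0.0135 and 0.00833). Those calls rested on both control libraries, with adjusted p of 0.0813 and 0.0608 without that of 35.8 M, and 0.0668 and 0.0501 without that of 33.7 M.

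The pair Hist2h3c1 and Hist2h3c2, H3 genes of the Hist2 cluster on chromosome 3 with the same reads, had 4, 3 and 6 reads in the 4HC libraries, 1, 9 and 13 in the 4HC+IFNAR1Ab libraries, 3, 0 and 0 in the IFNβ libraries and 0 in both control libraries. Set against 3 control reads, their ratio was 2.77 in 4HC and 4.51 in 4HC+IFNAR1Ab cells. The lower 95% limits were 1.95 and 3.38 when both counts vary. By limma, the lower 95% limits of their log2 fold were only 0.66 and 0.86 (limma adjusted p = 0.035 and 0.0242). Without single libraries of either 4HC group or of the control group the calls were mostly lost, with adjusted p between 0.0559 and 0.141 in 4HC cells without the libraries of 39.3, 32.1, 35.8 or 33.7 M and between 0.0635 and 0.113 in 4HC+IFNAR1Ab cells without those of 38.4, 38.3, 35.8 or 33.7 M. Hist1h2be, an H2B gene counted over 2510 bases in 3 spans (mm9, chr13:23675539-23712993), had 6, 10 and 6 reads in the 4HC libraries, 21, 19 and 7 in the 4HC+IFNAR1Ab libraries, 2, 2 and 0 in the IFNβ libraries and 0 and 2 in the control libraries (limma adjusted p = 0.0292 in 4HC and 0.00501 in 4HC+IFNAR1Ab cells). The call in 4HC cells was lost without the 4HC library of 37.3 M or the control library of 35.8 M (adjusted p = 0.0596 and 0.271), and that in 4HC+IFNAR1Ab cells without that control library (adjusted p = 0.0786). Over these leave-one-out fits, Hist1h2bc was the called member whose rise passed in every one, in both 4HC groups.

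**Figure D4:**
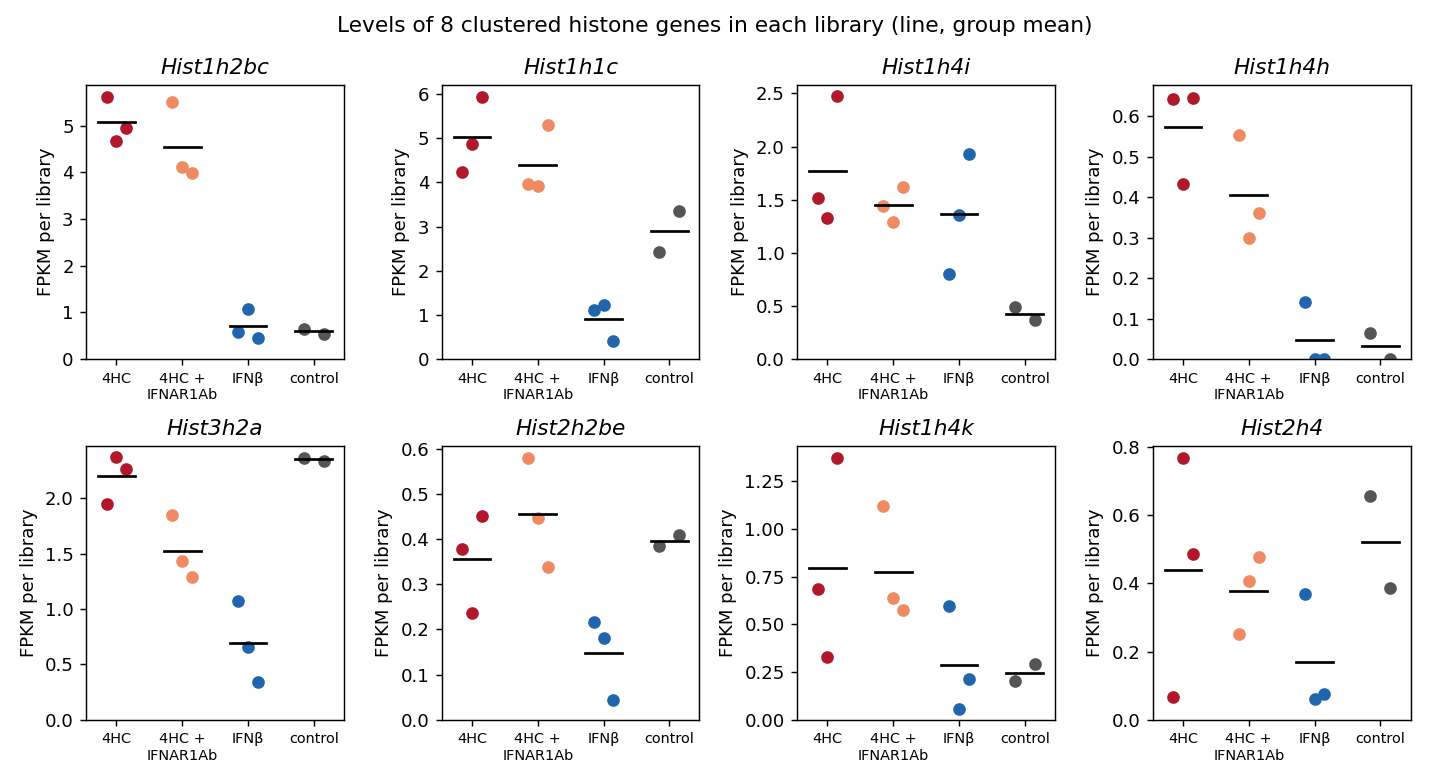
FPKM of 8 clustered histone genes in each library (points) with the group mean (line), for 3 libraries in each treated group and 2 in the control group. Hist1h2bc lay at 3.98 FPKM or above in all 6 libraries with 4HC and at 1.08 FPKM or below in the others, whereas Hist3h2a was lowest in the IFNβ libraries.

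Hist1h1c, a linker histone H1 gene (mm9, chr13:23830676-23831400, 725 counted bases), held the most reads of all members and fell in IFNβ cells. It had 4.24, 4.88 and 5.93 FPKM in the 4HC libraries, 3.96, 3.92 and 5.30 FPKM in the 4HC+IFNAR1Ab libraries, 1.12, 1.22 and 0.398 FPKM in the IFNβ libraries and 2.43 and 3.36 FPKM in the control libraries. Every library with 4HC lay above both control libraries, and every IFNβ library lay below them. In 4HC cells the log2 fold of 0.79 ± 0.29 (SE) had a limma adjusted p of 0.0327 but stayed under 2-fold, and was 0.67 with an adjusted p of 0.0631 once depths were rescaled to the median gene. In 4HC+IFNAR1Ab cells it was 0.60 (limma adjusted p = 0.0912). In IFNβ cells it fell by 1.71 on the log2 scale (SE 0.39, 95% interval -2.53 to -0.90, limma adjusted p = 0.00233).

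In IFNβ cells, 4 of the 23 tested members fell and none was called higher, where 4.32% of all tested genes were called lower and 7.76% higher. The members' median log2 fold was 0.12, against 0.04 for all tested genes. They were the H1 genes Hist1h1c and Hist1h1e, the H2A gene Hist3h2a and the H2B gene Hist2h2be. At an unadjusted p below 0.05, 5 members were lower and 1, Hist1h4i, was higher, beside 19.9% of all tested genes lower and 26.1% higher. Limma-trend called 4 members lower and 1 higher, beside 3.19% and 6.59% of all tested genes. In mean FPKM, 3 of 5 members above 0.5 FPKM were more than 2-fold lower (Hist1h1c, Hist2h4 and Hist3h2a) and 1, Hist1h4i, was higher, beside 4.04% lower and 7.73% higher among all genes. Hist2h4 passed 0.5 FPKM in control cells only (0.521 FPKM, against 0.169 in IFNβ cells). Hist1h4i passed it in IFNβ cells only (1.37 FPKM, against 0.427 in control cells), so the floor favoured the direction of both. Every IFNβ library lay below both control libraries for 5 of the 23 tested members, as it did for 24% of all tested genes, a share close to that of the members.

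Hist3h2a (mm9, chr11:58768187-58768694) had 1.95, 2.37 and 2.27 FPKM in the 4HC libraries, 1.85, 1.44 and 1.29 FPKM in the 4HC+IFNAR1Ab libraries, 1.08, 0.656 and 0.341 FPKM in the IFNβ libraries and 2.37 and 2.34 FPKM in the control libraries. The IFNβ libraries were below all others, while the 4HC and control libraries overlapped. It fell by 1.81 on the log2 scale in IFNβ cells (SE 0.39, limma adjusted p = 0.0018). Its log2 fold was -0.11 in 4HC cells (limma adjusted p = 0.798) and -0.63 in 4HC+IFNAR1Ab cells (limma adjusted p = 0.124).

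Hist2h2be (mm9, chr3:96025044-96027661, counted over 2618 bases) had 39, 23 and 38 reads in the 4HC libraries, 63, 45 and 34 in the 4HC+IFNAR1Ab libraries, 28, 20 and 4 in the IFNβ libraries and 36 in each control library. In IFNβ cells it fell by 1.57 on the log2 scale (SE 0.51, limma adjusted p = 0.0218). That call was lost without the IFNβ library of 34.7 M (log2 fold -0.98, adjusted p = 0.0857), and without the control library of 35.8 or 33.7 M (adjusted p = 0.0537 and 0.0655). Hist1h1e (mm9, chr13:23713646-23714427) had 10, 5 and 8 reads in the 4HC libraries, 4, 6 and 3 in the 4HC+IFNAR1Ab libraries, 7, 3 and 1 in the IFNβ libraries and 8 and 11 in the control libraries, and fell by 1.73 on the log2 scale in IFNβ cells (SE 0.62, limma adjusted p = 0.0357). Its call was lost without the IFNβ libraries of 42.0 or 34.7 M or the control library of 33.7 M (adjusted p = 0.0824, 0.125 and 0.167). Hist2h4, an H4 gene, averaged 0.169 ± 0.174 FPKM in IFNβ cells (SD, n = 3) and 0.521 ± 0.190 FPKM in control cells (n = 2) and did not pass the test (log2 fold -1.70, limma adjusted p = 0.133).

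The IFNβ library of 34.7 M was the lowest of its group for Hist1h1c, Hist3h2a, Hist1h1e and Hist2h2be. The falls of Hist1h1c and Hist3h2a passed the test when any single library was left out, with log2 folds that ranged from -1.97 to -1.28 and from -2.22 to -1.44 over all alternatives run.

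The effect of blocking the receptor in 4HC-treated cells was examined by setting 4HC+IFNAR1Ab against 4HC cells, 3 libraries each. None of the 23 tested members was called in either direction by limma, none had an unadjusted p below 0.05, and limma-trend called none. Over all tested genes, 0% were called higher and 0.394% lower, 1.53% were higher and 2.82% lower at an unadjusted p below 0.05, and limma-trend called 0% higher and 0.37% lower. In mean FPKM, none of the 6 members above 0.5 FPKM differed by more than 2-fold, beside 0.358% of all genes higher and 0.865% lower. For the 5 members with the most reads, the log2 difference was -0.17 for Hist1h2bc (95% interval -0.57 to 0.23), -0.18 for Hist1h1c (-0.66 to 0.29), -0.22 for Hist1h4i (-0.99 to 0.55), 0.39 for Hist2h2be (-0.39 to 1.17) and -0.52 for Hist3h2a (-1.17 to 0.12), each with a limma adjusted p of 0.985 or more. The limits over all 23 members reached from -3.06 to 3.59, so that for members with few reads differences of several fold in either direction were not detectable at this depth.

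The members that were not called had folds with wide intervals. Against control cells, the 15 members that were not called in 4HC cells had log2 folds between -1.53 and 2.49. The largest of these, Hist1h2ad, had 2, 7 and 7 reads in the 4HC libraries and 1 and 0 in the control libraries (limma adjusted p = 0.0564). The 15 not called in 4HC+IFNAR1Ab cells had log2 folds between -1.26 and 1.74, and the 19 not called in IFNβ cells between -2.08 and 1.68. The lowest of these, Hist2h2bb, had 1, 5 and 0 reads in the IFNβ libraries and 4 and 7 in the control libraries (limma adjusted p = 0.0613).

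The 41 members with 1 to 19 reads were not tested. Counting shared reads once, they held 102 reads in 4HC, 115 in 4HC+IFNAR1Ab, 108 in IFNβ and 37 in control cells, which is 0.938, 0.973, 0.857 and 0.533 RPM. Of the 41, 35 had a read in 4HC, 34 in 4HC+IFNAR1Ab, 30 in IFNβ and 24 in control cells, and none exceeded 0.192 FPKM in any group. The linker histone gene Hist1h1a, for example, had 2 reads in the 4HC group, 1 in the 4HC+IFNAR1Ab group and 0 in the IFNβ and control groups.

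Genes outside the clusters were compared as background. Replacement and variant histones, most of which have polyadenylated mRNAs and are put into chromatin outside replication, ranged widely in level. Of the 16 replacement and variant histone genes with a row, 9 reached 0.5 FPKM in 4HC or control cells, 5 (H1foo, H1fx, H2afb1, H2afy2 and Hils1) had at most 0.0522 FPKM in any group, and H1fnt and H2afy3 were at 0. The H3.3 genes H3f3a and H3f3b averaged 132 and 165 FPKM in 4HC cells, 131 and 148 FPKM in 4HC+IFNAR1Ab cells, 189 and 252 FPKM in IFNβ cells and 243 and 275 FPKM in control cells. The linker variant H1f0 averaged 61.0, 56.2, 23.8 and 94.5 FPKM in that order of groups, and H2afz, which encodes H2A.Z, 175, 165, 173 and 145 FPKM. These 4 genes had too many reads for library values to be recovered and were not tested.

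By the rule used for the members, 20.3%, 21.1% and 7.76% of all tested genes were called higher in 4HC, 4HC+IFNAR1Ab and IFNβ cells. Of the 5 variant histone genes that could be tested, 2 rose in each 4HC group and none in IFNβ cells. Those that rose were Cenpa, the centromeric H3 variant, with 46.1 FPKM in 4HC, 45.8 in 4HC+IFNAR1Ab, 13.3 in IFNβ and 8.76 in control cells, and H2afv, an H2A.Z variant, with 16.03, 14.7, 4.98 and 7.38 FPKM. H2afx, which encodes H2A.X, averaged 13.3, 12.5, 8.47 and 6.67 FPKM in that order, with log2 folds of 1.00 and 0.89 in 4HC and 4HC+IFNAR1Ab cells that did not exceed 2-fold (limma adjusted p = 0.000111 and 0.000247). H2afj and H2afy, an H2A variant and macroH2A, were lower, with 7.46 and 29.1 FPKM in 4HC cells, 6.29 and 27.6 FPKM in 4HC+IFNAR1Ab cells and 8.89 and 32.1 FPKM in IFNβ cells, against 12.2 and 37.9 FPKM in control cells, none of them by more than 2-fold.

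Of 23 tested genes for histone mRNA 3′-end processing and histone gene transcription, none was called higher in 4HC, 4HC+IFNAR1Ab or IFNβ cells, and 1, Nelfa, a subunit of the NELF elongation complex, was called lower in each 4HC group. Slbp averaged 25.7 FPKM in 4HC, 24.2 in 4HC+IFNAR1Ab, 31.2 in IFNβ and 17.3 in control cells. Its log2 folds of 0.63, 0.54 and 0.90 against control cells had limma adjusted p of 0.00663, 0.0145 and 0.000591 and stayed under 2-fold. Npat, a coactivator of histone genes, averaged 5.48, 6.03, 5.60 and 5.62 FPKM in that order. Of 11 tested histone chaperone genes, 1 rose in 4HC cells (Asf1b, a chaperone of H3 and H4), 1 fell in 4HC+IFNAR1Ab cells (Asf1a) and 2 rose in IFNβ cells (Chaf1b, a subunit of chromatin assembly factor 1, and Daxx, an H3.3 chaperone). Over all tested genes, 20.3%, 21.1% and 7.76% were called higher in 4HC, 4HC+IFNAR1Ab and IFNβ cells, and 1.84%, 2.76% and 4.32% lower.

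Cell-cycle genes differed between the groups too. Of 16 tested genes of G2 and mitosis, 16 rose in 4HC, 16 in 4HC+IFNAR1Ab and 9 in IFNβ cells, and Mki67, a proliferation marker with group means only, averaged 21.6 FPKM in 4HC, 26.0 in 4HC+IFNAR1Ab, 15.3 in IFNβ and 4.03 in control cells. Of 22 tested DNA replication genes, 7 rose in each of the 3 treated groups, and Pcna averaged 109, 102, 177 and 135 FPKM in the same order. Beside these counts, 20.3%, 21.1% and 7.76% of all tested genes were called higher in 4HC, 4HC+IFNAR1Ab and IFNβ cells. The ribosomal RNA precursor Rn45s, which lacks a poly(A) tail, averaged 300 FPKM in 4HC, 284 in 4HC+IFNAR1Ab, 338 in IFNβ and 1038 in control cells. It made up most of the summed level of 9 RNAs without a poly(A) tail, 307, 295, 347 and 1051 FPKM in that order. Scarna2, of the same list, averaged 0.456, 0.713 and 0.158 FPKM in the treated groups and 0 in control cells, and none of the 3 genes of the list that could be tested was called in 4HC, 4HC+IFNAR1Ab or IFNβ cells. The part of Rn45s and of the cell-cycle genes in the histone results was not tested.

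**Figure D5:**
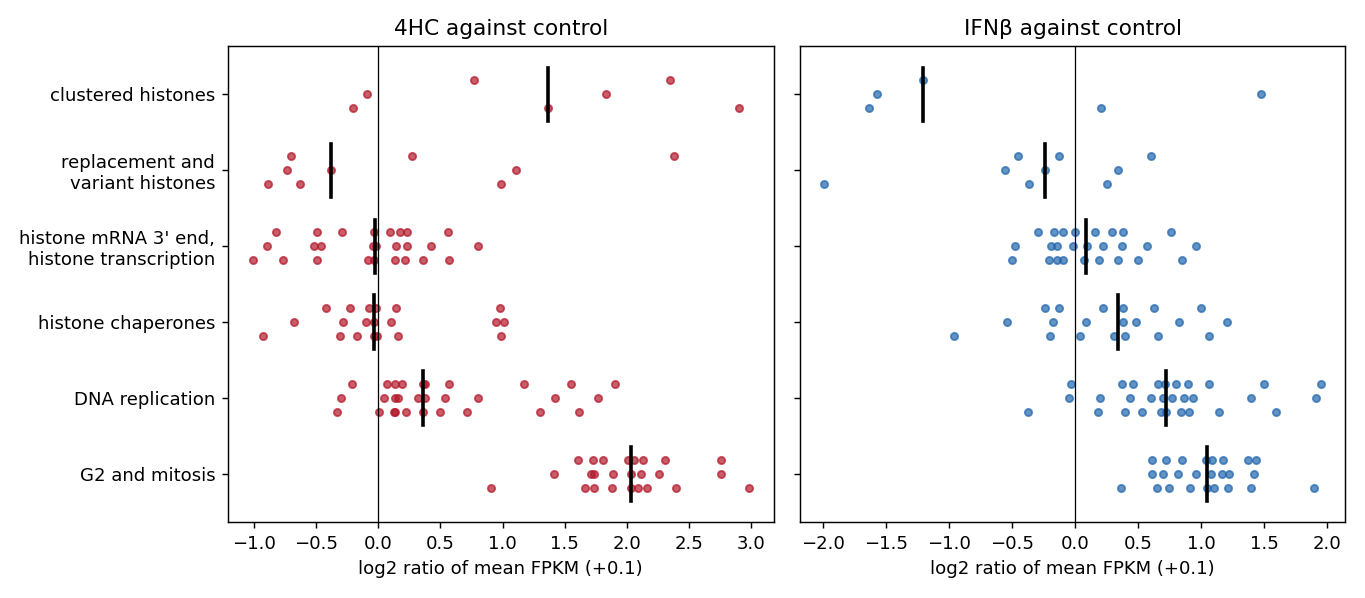
Log2 ratios of mean FPKM (with 0.1 FPKM added) in 4HC and in IFNβ cells against control cells for clustered histone genes and 5 lists of related genes, restricted to genes at 0.5 FPKM or more in either group. Points are genes and black lines medians, for clustered histones 1.36 in 4HC cells and -1.21 in IFNβ cells over 7 and 5 genes. The G2 and mitosis list had medians of 2.03 and 1.05. A gene near the floor enters mainly through the group in which it is higher, so the floor affects the medians of low genes such as the clustered histones.

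The medians of the clustered histone genes in the plot of gene lists rested on few genes and moved with single libraries. Leaving out 1 library at a time, the median in 4HC cells ran from 0.80, without the 4HC library of 32.1 M, to 1.70, and that in IFNβ cells from -1.72 to -0.65, the last without the control library of 35.8 M.

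The typical gene itself shifted slightly. Over genes with at least 50 reads in every library, the median log2 fold was 0.12 in 4HC, 0.10 in 4HC+IFNAR1Ab and 0.04 in IFNβ cells. After depths were rescaled to remove this shift, the same 8 members were called higher in 4HC cells, the same 8 in 4HC+IFNAR1Ab cells, and the same 4 lower in IFNβ cells, beside 17.7% and 19.0% of all tested genes called higher in the 4HC groups and 5.23% lower in IFNβ cells. Hist1h2bc then had log2 folds of 2.94 and 2.79 in 4HC and 4HC+IFNAR1Ab cells.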

How the data were processed

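RNA-seq libraries of 11 independent 4T1 cultures (3, 3, 3 and 2) were made by the authors from poly(A)-selected RNA with a directional paired-end kit. Per the labels, reads were mapped to mm9 with TopHat2 and counted with featureCounts, and edgeR was used for comparisons. Versions, and whether counting used strand, were not given in the sources used here. The deposited table holds, per gene, the FPKM averaged by the authors over each group, and columns of the authors' own ratios, fold changes and p-values, which were not used.

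FPKM means are printed to 11 decimals, so each is a sum of whole reads divided by depth and length. Depths were found from low genes, and whole reads per library were then recovered for 16833 of 18190 genes above 0 (92.5%), including all 64 members above 0. Whether a read or a read pair was counted was not determined. Because the table was first taken to hold group means only, the comparison set out at the start was log2((mean FPKM + 0.1)/(mean FPKM + 0.1)) for genes at 0.5 FPKM or more in either group, past 2-fold, with no test. The limma-voom test (limma 3.58.1, R 4.3.3) on recovered reads was added after the table had been seen: genes with 20 or more reads, depth as library size, 4 groups in 1 fit, Benjamini-Hochberg adjustment over all genes, called below 0.05 and past 2-fold. An exact permutation test of 3 against 2 libraries cannot go below p = 0.1. The fit was tried on simulated reads with 200 genes changed 4-fold and a set variation between libraries (dispersion 0.03). For 4HC against control, 187 of the 200 had enough reads to be tested, and 167 of those 187 (89.3%) were recovered. The changed genes below the read filter could not be recovered. The changed genes were drawn from all tested genes, so this share does not describe genes with as few reads as most members. Sequences came from GENCODE M21 and RefSeq, all in GRCm38, while gene coordinates are those of the table's build, mm9. Intervals of ratios cover counting error only.

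Genes were named by level (5 FPKM or more in a group) and by the 3 highest and 3 lowest ratios per comparison above 0.5 FPKM. All members called by limma, those just missing it and Hist1h1a were named after their values were seen. The members and gene lists were chosen with earlier results of these data known. Alternatives were other pseudocounts, floors, folds, filters, scalings, limma-trend and leaving out each library.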

Additional observations from a re-analysis of the deposited data

How the results depend on the processing

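No paired analysis was possible because the recovered libraries carry no replicate number. Alternatives to the limma test were chosen after seeing the data. For the 50-read filter and the leave-one-out fits the share of all genes called is not given. Those counts show how far the calls moved, not how the members compare with other genes. With 50 reads required, limma called 4 members higher in 4HC and 4 in 4HC+IFNAR1Ab cells (8 in each with 20), fewer members being tested, and 1 higher in IFNβ cells, as limma-trend also did (1). Leaving out 1 library at a time gave 3 to 7 members higher in 4HC, 3 to 8 in 4HC+IFNAR1Ab, 0 to 1 in IFNβ cells, and 2 to 4 lower in IFNβ cells; with 1 control library left, it was assumed to vary like the other groups. The uncalled log2 folds of Hist1h4i between 4HC+IFNAR1Ab and 4HC cells (-0.39 to 0.021) and of Hist1h2bc in IFNβ cells (-0.20 to 0.37) changed sign in these fits. The cause was not tested.

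In mean FPKM, the number of members more than 2-fold higher was 1 in 4HC, 1 in 4HC+IFNAR1Ab and 0 in IFNβ cells with a pseudocount of 1 (4, 3 and 1 with 0.1), and 1 was lower in IFNβ cells (3 with 0.1). Without a floor, 9, 12 and 3 were higher, 1 was higher in 4HC+IFNAR1Ab against 4HC cells, and 1 was lower in 4HC+IFNAR1Ab and 6 in IFNβ cells. A floor of 1 FPKM left 2 higher in 4HC cells. No count given here for an alternative setting was set beside the share of all genes at that setting. A 3-fold limit left 1 higher in 4HC+IFNAR1Ab, 0 higher in IFNβ and 1 lower in IFNβ cells, and 1.5-fold gave 1 lower in 4HC+IFNAR1Ab cells. Median log2 ratios were 0.61, 0.49 and -0.38 with a pseudocount of 1, and 0.31, 0.30 and 0.20 without a floor, against 1.36, 0.96 and -1.21; the IFNβ median thus changed sign once members near 0 were included. Members above the floor numbered 4 at 1 FPKM and 36 at 0.1 FPKM, against 7. Without the highest member, summed FPKM was 15.8 in 4HC, 14.6 in 4HC+IFNAR1Ab and 7.13 in control cells, against 20.9, 19.1 and 10.0.

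Of the other summary values, 200 stayed within 1.5 times of the reported count or 1 SD of the reported value. Depth limits most members: 41 had fewer than 20 reads in 11 libraries, and a count of 0 in control cells allows 3 reads.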
